A study of Sus scrofa with 31 samples.

Results

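The collagen genes of pig myocardium were followed through heart storage and through a period of warm perfusion after storage. Members were all genes whose symbol is COL, a number, A and a number, so that COLEC, COLGALT and COLQ genes stayed out. This gave 42 genes, 40 of the 21313 genes measured in arm 1 and 33 of the 25149 measured in arm 2; of the arm 2 members, 28 carried their symbol in the arm 2 table and 5 (COL21A1, COL9A1, COL4A6, COL4A3 and COL6A1) were identified by an ID that the arm 1 table names. The rule used names only and no measured value.

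Arm 1 held 24 myocardial biopsies from 6 pigs (Sus scrofa). Pigs 1, 3 and 5 are labelled SCS and pigs 2, 4 and 6 HOPE, and each heart was sampled at 0, 12, 24 and 48 h. The labels do not spell these out; in heart preservation they usually stand for static cold storage and hypothermic oxygenated perfusion. Arm 2 held 7 libraries from hearts perfused warm for 2 h once storage had ended (normothermic machine perfusion, NMP). The storage before it was HOPE for 3, 24 or 48 h (2 libraries per time) or SCS for 24 h (1 library). The sources used here give no strain, age, genotype or drug, and the groups differ in storage method and time only as far as the labels say. The labels call the samples cardiomyocytes, but biopsies hold every cell type of the myocardium, and in such bulk RNA fewer cells of a type and less RNA per cell cannot be told apart.

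Collagens are triple-helical proteins of the extracellular matrix, each built from 3 chains. The fibrillar types I, III and V form the interstitial fibres of the heart and are made mainly by fibroblasts. Type IV forms the sheet of the basement membrane around cardiomyocytes and vessels, and type VI forms beaded filaments between the basement membrane and the fibres. The smaller groups are the FACIT collagens, which sit on fibrils (XII, XIV, XVI and XXI, for example), the multiplexins XV and XVIII of vessel basement membranes, the short-chain type VIII of vessel walls, and transmembrane collagens such as XIII and XXIII.

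Arm 1 libraries held 19722065 to 35099406 reads, and values are normalised counts, which are comparable between libraries but not per gene length. Mitochondrially encoded genes took 29.0% to 62.1% of them in 23 libraries and 82.4% in the SCS 48 h library of pig 5. In arm 2 the values are TPM, transcript shares scaled to a common total per library, which are per gene length, and the depth is unknown. The SCS library of arm 2 stands apart from the other 6: its 6 ventricular cardiomyocyte markers summed to 2466 TPM against 38051 to 61252, and its 2 red cell markers to 6161 TPM against 34.0 to 3125. Pigs are the replicates in arm 1; the arm 2 labels do not say that equal numbers are separate animals, so arm 2 p-values reflect only how far these samples spread, which may be technical. Differences are log2 values ± SE on the log2(value + 1) scale from limma, with Benjamini-Hochberg adjusted p-values over all genes tested, and a gene is called past an adjusted p of 0.05.

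In level, the collagens measured here were dominated by a few chains. COL1A1, COL4A1 and COL18A1 are not among the arm 2 members, so the order below leaves them out. In arm 1 their means were 10207, 19526 and 3015 normalised counts, against 13308 for COL4A2 and 10609 for COL1A2. In arm 2, where values are per length, COL3A1 was highest with a median of 418 TPM over the 6 HOPE libraries (248 to 511), followed by COL4A2 at 182 TPM, COL1A2 at 118 TPM and COL6A2 at 85.4 TPM. These 4 overlapped with their neighbours in part: the ranges of COL4A2 (74.8 to 241 TPM) and COL1A2 (70.4 to 150.0 TPM) cover each other, whereas COL3A1 lay above both in all 7 libraries. COL5A1, COL5A2, COL15A1 and COL6A3 came next with medians of 27.0, 21.2, 20.6 and 20.5 TPM, and their ranges overlap. COL5A3 (11.5 TPM) and COL14A1 (10.4 TPM) followed, 17 of the 33 members had a median of at least 1 TPM, and 4 were listed at 0 in all 7 libraries (COL2A1, COL9A1, COL10A1 and COL6A1). COL6A1 was listed at 0 although COL6A2 and COL6A3, whose products join it in type VI collagen, were not, and arm 1 held 2540 to 6907 normalised counts of it.

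In arm 1, 28 of the 40 members reached the mean of 10 normalised counts needed for testing. The 12 below it were COL2A1, COL4A3, COL4A4, COL8A2, COL9A1, COL9A3, COL10A1, COL11A2, COL17A1, COL19A1, COL22A1 and COL25A1, most of them chains known from cartilage, kidney, epithelia or nerve. Fibrillar genes took 40.0% to 65.1% of all collagen counts (median 52.7%), basement membrane genes 19.1% to 41.5% (median 26.9%) and type VI genes 6.62% to 11.8%. These are shares of counts, which longer transcripts fill faster. In arm 2 only 10 members reached a mean of 10 TPM: COL1A2, COL3A1, COL5A1, COL5A2, COL5A3, COL4A2, COL6A2, COL6A3, COL14A1 and COL15A1. COL14A1 did so only with the SCS library counted. COL1A1, COL4A1 and COL18A1, all abundant in arm 1, were not analysed here in arm 2.

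The design asks first whether collagen transcripts change as the stored heart ages. No collagen gene was called at any time in either storage group: 0 of 28 at 12, 24 and 48 h against 0 h in SCS, and 0 of 28 at the same times in HOPE. The background was as low, with 0% of the 14141 genes called by limma in each of these 6 comparisons. At an unadjusted p under 0.05, limma gave 3 collagens at 24 h of SCS (3.41% of all genes) and 1 at 48 h of HOPE (1.39%). It gave 0 in the other 4 comparisons. Taking the pig as a replicate block gave 9 at 24 h of SCS (11.3% of all genes) and 5 at 48 h of HOPE (7.55%). It gave 3 at 48 h of SCS (20.5%), 1 at 24 h of HOPE (8.46%) and 0 at 12 h in both groups (4.65% and 3.95%). On the recovered reads, edgeR and DESeq2 called 0 in all 6. With the pig as a replicate block 2.18% of all genes were called at 48 h of SCS, and still 0 of the 28 collagens.

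The fibrillar chains make up most of the signal. COL3A1, the chain of type III collagen, measured 53697, 35499 and 23125 normalised counts at 0 h in SCS pigs 1, 3 and 5, and 48248, 59154 and 42379 at 24 h. At 48 h it measured 25176, 71970 and 18003 in the same pigs. Pig 3 was thus at its highest, pigs 1 and 5 were below their own starts, and the difference at 48 h was -0.14 ± 0.38. In HOPE pigs 2, 4 and 6 the gene measured 40701, 39200 and 24312 at 0 h, and 43982, 39547 and 41557 at 48 h, a difference of 0.30 ± 0.38 most of it in pig 6.

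**Figure D1:**
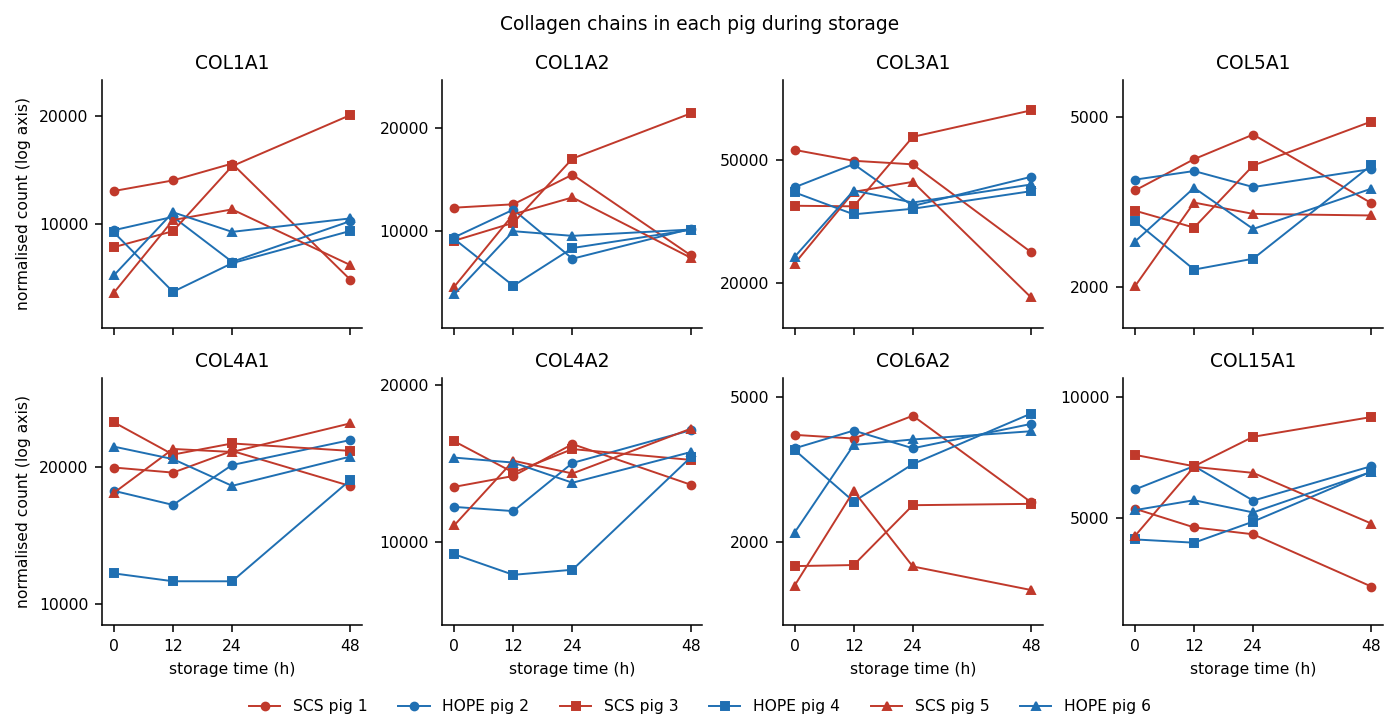
Normalised counts (log axis) of 8 collagen genes against storage time in hours, 1 line per pig, SCS in red and HOPE in blue. The fibrillar genes COL1A1, COL1A2 and COL3A1 spread widely between SCS pigs at 48 h, while the 3 HOPE pigs lie close together; COL4A1 and COL4A2 are lowest in HOPE pig 4 from 0 to 24 h.

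COL1A1 and COL1A2 encode the 2 chains of type I collagen. COL1A1 measured 12369, 8630 and 6444 normalised counts at 0 h of SCS, 14747, 14508 and 10995 at 24 h, and 7004, 20129 and 7695 at 48 h. It was higher in 3 of 3 SCS pigs at 24 h, by 0.59 ± 0.32, and the 48 h values fell on both sides of the starting ones. COL1A2 followed it, with 11670, 9343 and 6857 at 0 h and 14576, 16238 and 12503 at 24 h of SCS, a difference of 0.66 ± 0.29 (unadjusted p = 0.0359, adjusted p = 0.999). In HOPE the same genes stayed within 0.27 of their 0 h means on the log2 scale at every time; COL1A1 measured 10196, 9576 and 10377 at 48 h against 9621, 9485 and 7205 at 0 h.

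Type V collagen, which joins type I in the fibril and sets its width, gave COL5A1 values of 3364, 3016 and 2004 at 0 h and 4552, 3850 and 2963 at 24 h of SCS, higher in 3 of 3 pigs by 0.45 ± 0.25. Its partner COL5A2 differed by 0.19 ± 0.28, with 1 of 3 pigs on the other side. At 24 h of SCS, 8 of the 9 tested fibrillar genes had a positive difference and their median was 0.45. At 48 h it was 0.04, and at 48 h of HOPE 0.27. The only fibrillar genes with a negative difference at 48 h of HOPE were minor ones, COL11A1 (-0.98 ± 0.92, 0 to 33.3 counts over the arm), COL24A1 and COL27A1.

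Of the basement membrane genes, COL4A1 and COL4A2 ranged 2.24-fold and 1.90-fold over the 24 libraries, against 4.00-fold for COL3A1, while the low-count COL4A5 ranged 6.37-fold and COL4A6 from 19.2 to 249.6 counts. COL4A1 measured 19961, 25094 and 17561 normalised counts at 0 h of SCS and 18179, 21716 and 24961 at 48 h, a difference of 0.05 ± 0.26. COL4A2, its partner in the common type IV trimer, differed by 0.17 ± 0.22 there. In HOPE both were higher at 48 h: COL4A1 went from 17741, 11684 and 22188 to 22937, 18737 and 21097, and COL4A2 from 11658, 9460 and 14491 to 16348, 14508 and 14845. The latter is 0.38 ± 0.22 and was seen in 3 of 3 pigs, whereas COL4A1 was lower in pig 6. The X-linked chains COL4A5 and COL4A6, low in amount, were higher in 3 of 3 HOPE pigs at 48 h as well. COL4A6 was also higher in 3 of 3 SCS pigs, at 24 h (0.84 ± 0.73) and at 48 h (1.08 ± 0.73, against 0.91 ± 0.73 in HOPE). In HOPE it measured 29.7, 141 and 22.7 counts at 0 h and 36.0, 249.6 and 73.9 at 48 h. Pig 4 had the highest COL4A6 of the HOPE group at all 4 times.

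COL4A1 and COL4A2 adjoin each other on chromosome 11 (chr11:76858332-76997409 and chr11:76996885-77161617 in RefSeq's Sscrofa11.1 annotation), and their annotated spans overlap. COL3A1 (chr15:93556914-93595678) and COL5A2 (chr15:93611856-93981131) are neighbours on chromosome 15. The type I genes lie apart, COL1A1 at chr12:26379087-26397180 and COL1A2 at chr9:74174484-74210407. The sources used here do not give the strand setting of the counting, so reads in the overlap of the type IV genes cannot be assigned with certainty.

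Type VI collagen had 5 tested genes, and all 5 were higher at 48 h of HOPE in 3 of 3 pigs, with a median of 0.35. COL6A2 measured 3613, 3577 and 2125 normalised counts at 0 h and 4214, 4498 and 4024 at 48 h of HOPE, a difference of 0.49 ± 0.37. COL6A1 and COL6A3 differed by 0.38 ± 0.27 and 0.35 ± 0.27. COL6A1 measured 4325, 4411 and 3778 at 0 h and 5115, 5662 and 5448 at 48 h. COL6A3 measured 4020, 3239 and 3567 and then 4593, 4726 and 4395. In SCS at 48 h these genes differed by 0.36 ± 0.27 (COL6A1), -0.03 ± 0.37 (COL6A2) and -0.02 ± 0.27 (COL6A3). None of these passed the threshold.

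Among the remaining classes, the FACIT gene COL16A1 and the transmembrane gene COL13A1 had the clearest pattern in SCS at 24 h. COL16A1 measured 359.8, 325 and 363 counts at 0 h and 505, 583 and 468 at 24 h. The difference was 0.56 ± 0.22 (unadjusted p = 0.0163, adjusted p = 0.999). COL13A1 measured 4.16, 18 and 20.4 counts at 0 h and 47.7, 35.6 and 41.4 at 24 h, which was the highest difference of any member there (1.72 ± 0.61, adjusted p = 0.999), at fewer than 50 counts in every SCS library. In HOPE COL13A1 measured 20.6, 13.6 and 25.9 at 0 h and 41.9, 52.9 and 56.1 at 48 h (1.32 ± 0.61, adjusted p = 1.0), and its 3 highest HOPE values were those at 48 h, whereas its 3 highest SCS values were those at 24 h. Low counts mark the members with the extreme differences. The lowest were those of COL6A5 (-0.88 ± 0.88) at 24 h of SCS, COL28A1 (-1.59 ± 0.77) at 48 h of SCS and COL11A1 at 48 h of HOPE. The highest at 48 h of SCS was COL11A1 (1.25 ± 0.92). At 12 h the extremes were COL21A1 (0.66 ± 0.39) and COL23A1 (-0.60 ± 0.63) in SCS and COL4A6 (0.44 ± 0.73) and COL11A1 (-1.01 ± 0.92) in HOPE, and at 24 h of HOPE COL24A1 (0.69 ± 0.71) and COL28A1 (-1.13 ± 0.77). Over the arm COL6A5 ranged from 2.89 to 92.3 counts, COL28A1 from 1.02 to 45.5, COL23A1 from 10.7 to 123 and COL24A1 up to 44.8.

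The vessel-associated and fibril-associated genes of higher level had small differences. COL15A1 differed by -0.08 ± 0.28 at 48 h of SCS and by 0.36 ± 0.28 at 48 h of HOPE, where its values were 6716, 6511 and 6499 against 5874, 4410 and 5217 at 0 h. COL18A1, whose product holds the endostatin fragment, measured 2584, 2433 and 2076 counts at 0 h and 4602, 2849 and 2201 at 24 h of SCS. It differed by 0.38 ± 0.23 at 24 h of SCS and 0.20 ± 0.23 at 48 h of HOPE. At 24 h pig 1 stands above the other pigs for this gene. COL14A1 measured 2541, 2079 and 1432 counts at 0 h and 2144, 2806 and 2261 at 24 h of SCS, and 2588, 2233 and 1086 at 0 h and 2544, 2541 and 1960 at 48 h of HOPE. It differed by 0.28 ± 0.37 and 0.34 ± 0.37, and COL8A1 by 0.41 ± 0.32 and 0.45 ± 0.32, in the same 2 comparisons. COL8A1 measured 534, 709 and 617 counts at 0 h and 990.4, 521 and 1071 at 24 h of SCS, so that pig 3 went the other way.

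Counted over all 28 tested members, 2 time points stand out in direction. At 48 h of HOPE, 18 of 28 members were higher than at 0 h in 3 of 3 pigs, where 18.5% of all tested genes were, and 0 of 28 were lower in 3 of 3 pigs, where 13.8% of all genes were. At 24 h of SCS, 11 of 28 were higher in 3 of 3 pigs (15.3% of all genes) and 1, COL28A1, was lower (15.0% of all genes). The other times were nearer to the background: 7 of 28 higher at 12 h of SCS (18.4% of all genes), 3 at 48 h of SCS (13.9%), 2 at 12 h of HOPE (15%) and 3 at 24 h of HOPE (16.2%). At 48 h of SCS 3 members were lower in 3 of 3 pigs (16.2% of all genes), namely COL23A1, COL24A1 and COL28A1.

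The members' median difference was 0.33 at 48 h of HOPE and 0.34 at 24 h of SCS, against 0.01 and -0.01 over all genes. Between replicates of a group, the members' median in a library had an SD of 0.26. The individual pigs gave medians of 0.17, 0.44 and 0.53 at 48 h of HOPE and 0.15, 0.37 and 0.49 at 24 h of SCS. At 48 h of SCS the pigs parted, with -0.45 in pig 1, 0.52 in pig 3 and 0.24 in pig 5, and the members' median was 0.07 (0.35 without pig 1, -0.01 without pig 3). The 0 h library of pig 6 was the lowest of its group for COL3A1, COL1A1 and COL1A2; without it the median at 48 h of HOPE was 0.25, with 25 of 28 members positive. Scaled to the library total in place of the authors' size factors, the median of all genes shifted to -0.36 at 24 h and -0.99 at 48 h of SCS but only to 0.03 at 48 h of HOPE. On that scale 14 of 28 members were positive at 24 h of SCS and 24 of 28 at 48 h of HOPE. The position relative to all genes hardly moved at these times. At 24 h of SCS the members' median minus that of all genes was 0.36 with the authors' size factors and 0.35 with library totals. At 48 h of HOPE it was 0.32 with either scaling. At each of these times 24 of 28 members lay above the median of all genes with either scaling.

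**Figure D2:**
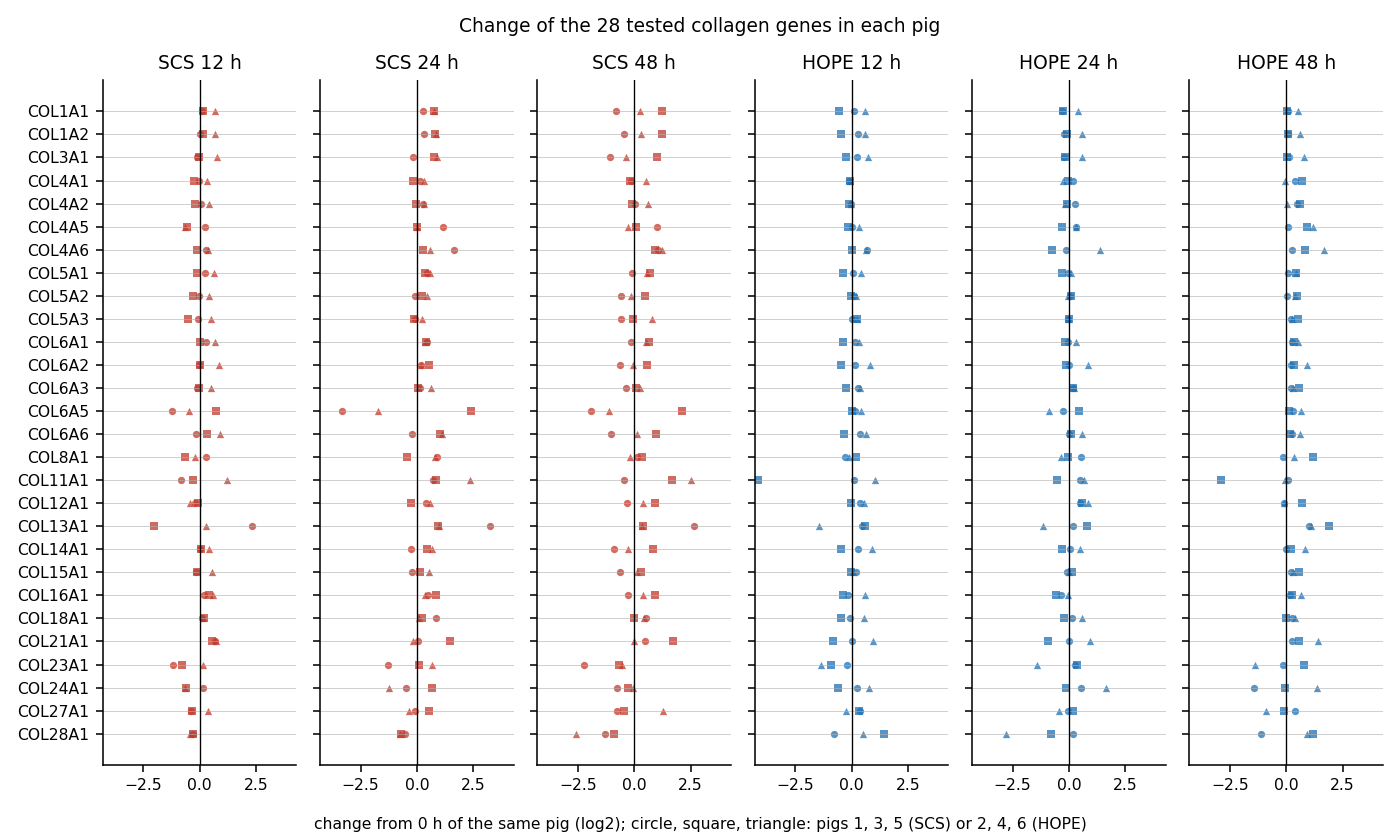
Log2 change from the 0 h sample of the same pig for the 28 tested collagen genes, SCS in red and HOPE in blue, 1 panel per storage group and time and 1 symbol per pig. At 48 h of HOPE 18 of 28 genes have all 3 symbols right of 0, and at 48 h of SCS the circles (pig 1) lie left of 0 for 21 of 28 genes and the squares (pig 3) right of it for 20.

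Markers of other cells were looked at beside these counts. The summed fibroblast markers (7 of 8 list genes found, none at 0 in any library) were 42450 to 48208 normalised counts at 0 h and 60381 to 79138 at 24 h of SCS, and 39204 to 48951 at 0 h and 40823 to 67666 at 48 h of HOPE. In SCS at 48 h they were 40647, 109657 and 42865 in pigs 1, 3 and 5, with pig 3 again above the others, as for COL1A1 and COL3A1. Endothelial markers (7 of 8 found, none at 0) in the same 3 libraries were 10977, 39596 and 39272. Their part in the collagen values was not tested.

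The second question of the design is whether HOPE hearts differ from SCS hearts. At 0 h 0 of 28 collagens were called (0% of all genes), and at 12 h 0 of 28 (0.0141% of all genes). At 24 h, when limma called 2.04% of all genes, and at 48 h, when it called 6.25%, the count of collagens called was again 0 of 28. With the pig as a replicate block these shares were 9.87% and 11.5% of all genes and still 0 of 28 collagens. At an unadjusted p under 0.05 limma gave 0, 0, 5 and 2 of 28 collagens at 0, 12, 24 and 48 h. The shares of all genes were 7.21%, 16.3%, 26.8% and 27.8%. edgeR called 0 collagens at all 4 times, and DESeq2 called 1 at 24 h, COL16A1, and 0 otherwise.

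At 24 h the collagens of HOPE hearts lay on the low side. Of 28 members 24 had a negative difference, the median was -0.25 against 0.01 over all genes, and all 9 fibrillar and all 4 basement membrane genes were among the 24. The sign depends on the scaling, but the position relative to all genes did not. Scaled to library totals, the members' median was 0.11 with 17 of 28 positive, while that of all genes was 0.39. The members' median minus that of all genes was -0.26 with the deposited scaling and -0.27 with library totals. With either scaling 4 of 28 members lay above the median of all genes. For 7 members every HOPE value was below every SCS value (12.9% of all genes): COL1A1, COL1A2, COL3A1, COL4A1, COL16A1, COL13A1 and COL28A1. For 0 members every HOPE value was above (13.9% of all genes).

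COL1A1 measured 7855, 7786 and 9518 normalised counts in the HOPE pigs at 24 h against 14747, 14508 and 10995 in the SCS pigs, a difference of -0.67 ± 0.32 (adjusted p = 0.18). COL1A2 measured 8278, 8895 and 9654 against 14576, 16238 and 12503 (-0.69 ± 0.29, adjusted p = 0.147). COL3A1 measured 35448, 34722 and 36361 against 48248, 59154 and 42379 (-0.48 ± 0.38). In each of the 3 the HOPE samples lie close together below a wider SCS group.

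COL16A1 had the lowest p of any collagen at 24 h, with 334, 321 and 307 counts in HOPE and 505, 583 and 468 in SCS (-0.69 ± 0.22, adjusted p = 0.0752). It was called when SCS pig 1 was left out (-0.70, adjusted p = 0.0285), together with COL23A1 (-1.75, adjusted p = 0.043). COL8A1 measured 885, 342 and 393 in HOPE and 990.4, 521 and 1071 in SCS, which overlap (-0.74 ± 0.32, adjusted p = 0.152). The lowest difference was that of COL28A1 (-2.08 ± 0.77, adjusted p = 0.108), at 1.02 to 10.6 counts in HOPE. COL28A1 was also below SCS at 0 h with no overlap, as were 6.19% of all genes. The highest difference was that of COL6A5 (1.31 ± 0.88).

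The type VI genes were mixed at 24 h, with 3 of 5 positive. COL6A1 (-0.11 ± 0.27) and COL6A3 (-0.09 ± 0.27) were negative like the fibrillar genes, and COL6A2, COL6A6 (0.19 ± 0.41) and COL6A5 were positive. COL6A2 was at 3614, 3272 and 3821 normalised counts in HOPE and 4437, 2525 and 1716 in SCS at 24 h, a difference of 0.41 ± 0.37. At 48 h it was at 4214, 4498 and 4024 against 2573, 2546 and 1479, so that all HOPE samples lay above all SCS samples by 0.99 ± 0.37 (adjusted p = 0.0917). Without pig 1 this was called (1.13, adjusted p = 0.0132). The other type VI genes differed in the same direction at 48 h, COL6A1 by 0.27 ± 0.27, COL6A3 by 0.34 ± 0.27, COL6A6 by 0.96 ± 0.41 (adjusted p = 0.139) and COL6A5 by 1.30 ± 0.88, the highest difference of any member at that time. At 0 h the COL6A2 difference was 0.47 ± 0.37, and the groups overlapped.

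At 48 h 3 members had every HOPE value above every SCS value (10.5% of all genes), COL6A2, COL6A3 and COL13A1, and 2 had every HOPE value below (10.2%), COL12A1 and COL11A1. COL12A1 measured 364, 334 and 259 counts in HOPE and 430.1, 683 and 439 in SCS (-0.68 ± 0.36). The lowest difference at 48 h was that of COL11A1 (-1.38 ± 0.92). At 0 h the extremes were COL11A1 (0.84 ± 0.92) and COL28A1 (-1.60 ± 0.77), and at 12 h COL6A5 (1.19 ± 0.88) and COL23A1 (-1.25 ± 0.63). The members' median at 48 h was 0.22, and it was -0.00 without the SCS 48 h library of pig 1 and 0.07 without that of pig 5. Scaled to library totals, 19 of 28 members were called higher in HOPE at 48 h, but the median of all genes was then 1.12 and that of the members 1.30. The share of all genes called on that scale is not given here, so this count cannot be set against a background. With either scaling 19 of 28 members lay above the median of all genes.

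**Figure D3:**
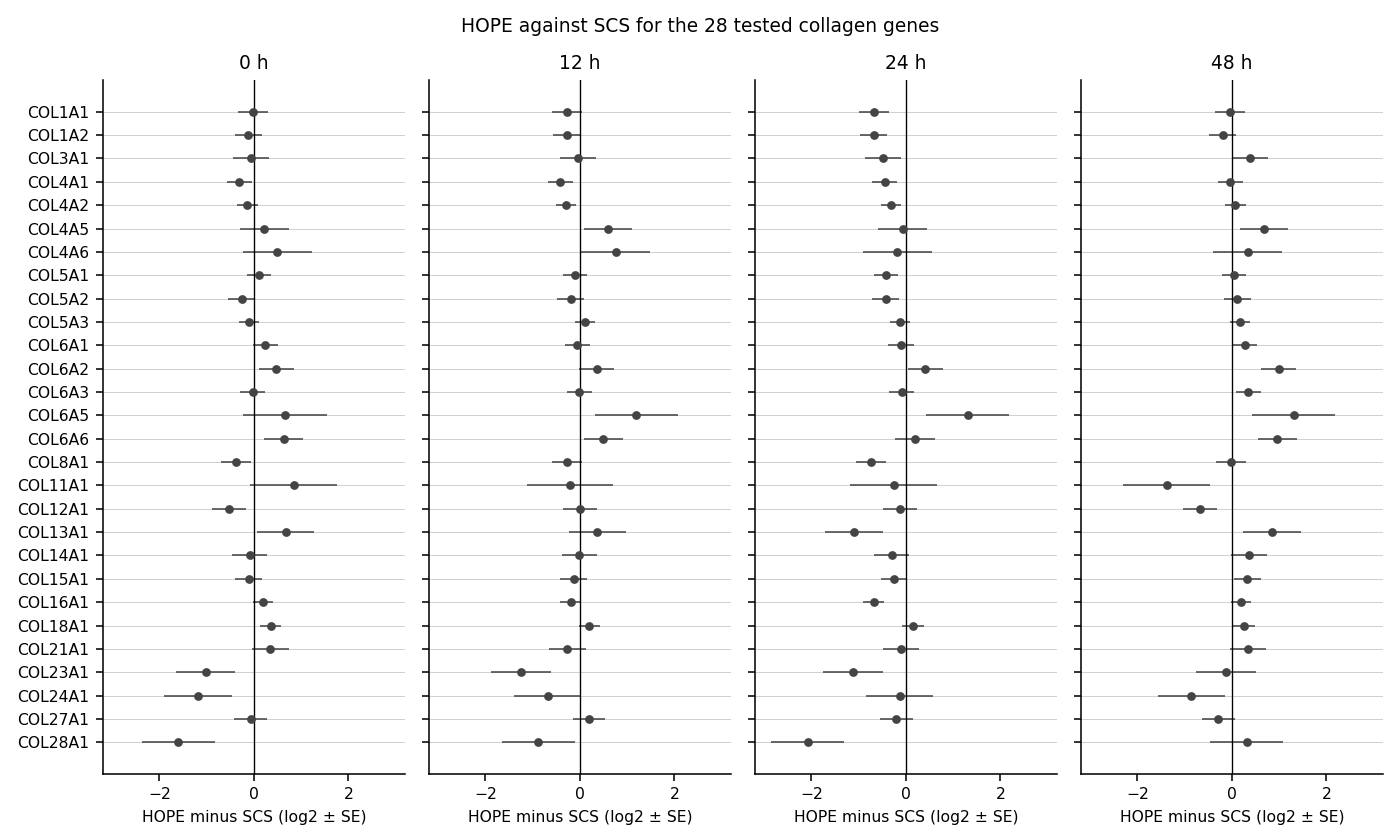
Log2 difference between HOPE and SCS hearts (points, bars are ± 1 SE, n = 3 pigs per group) for the 28 tested collagen genes at 0, 12, 24 and 48 h. With the deposited scaling 24 of 28 points lie left of 0 at 24 h, and at 48 h COL6A2 lies 0.99 to the right.

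Whether the change since 0 h differed between the storage groups was tested directly. No collagen was called at 12, 24 or 48 h, and neither was any other gene (0% each by limma). At 24 h 25 of 28 members had a negative value, with a median of -0.25 against 0.05 over all genes, and COL16A1 was the only member with an unadjusted p under 0.05 (-0.87 ± 0.30, unadjusted p = 0.00928, adjusted p = 1.0). Of all genes, 1.84% had an unadjusted p under 0.05 at 24 h. The lowest and highest values at 24 h were those of COL13A1 (-1.77 ± 0.86) and COL24A1 (1.05 ± 1.01). At 12 h the extremes were COL11A1 (-1.05 ± 1.30) and COL28A1 (0.72 ± 1.09), and at 48 h COL11A1 (-2.22 ± 1.30) and COL28A1 (1.92 ± 1.09), all genes of few counts. These contrasts use the samples of the comparisons above and are not independent of them.

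Genes that make, cross-link and break down collagen were examined from lists. Of all 14141 genes, 109 were called lower and 179 higher in HOPE at 24 h (2.04% in all), and 341 lower and 543 higher at 48 h. At 24 h, HOPE against SCS, 0 of 17 tested genes of collagen folding and modification were called, 1 of 13 of procollagen processing and cross-linking was lower, 1 of 6 of breakdown and its inhibitors was lower, and 0 of 8 receptors, 0 of 7 fibril-associated proteoglycans and 0 of 9 basement membrane partners were called. The 2 genes called were LOXL1, a lysyl oxidase that cross-links matrix fibres (-1.53 ± 0.33, adjusted p = 0.0319), and TIMP1, an inhibitor of the matrix metalloproteinases (-1.61 ± 0.36, adjusted p = 0.0365). Medians of these lists were -0.38, -0.54, -0.45, -0.14, -0.70 and -0.06 in the order given. At 48 h TIMP1 (-1.76 ± 0.36, adjusted p = 0.017) and the proteoglycan BGN, biglycan (-1.58 ± 0.38, adjusted p = 0.028), were lower in HOPE, and no gene of the other 4 lists was called.

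The proteoglycans had 7 of 7 negative at 24 h and again 7 of 7 at 48 h, with medians of -0.70 and -0.35. The basement membrane partners (laminins, nidogens and perlecan) had 4 of 9 positive at 24 h and 8 of 9 at 48 h, with medians of -0.06 and 0.35. With the pig as a replicate block, which called 9.87% of all genes at 24 h and 11.5% at 48 h, the metalloproteinase MMP2 (-0.71), the procollagen enhancer PCOLCE (-1.04), the collagen-cleaving cathepsin CTSK (-0.90) and BGN (-1.41) were also lower in HOPE at 24 h, and the collagen receptor DDR1 was higher (1.51); their adjusted p-values were 0.0338, 0.024, 0.0412, 0.0226 and 0.0199. At 48 h the block added DDR1, the laminin chains LAMC1 (0.81) and LAMB2 (0.65) and the collagen export factor MIA3 (0.76) as higher and PCOLCE (-0.83) as lower. At 48 h of SCS against 0 h, TIMP1 alone of these genes was called with the block (0.97, adjusted p = 0.013; 2.18% of all genes). Within SCS or HOPE no gene of these lists was called without the block.

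Fibroblast markers were lower in HOPE than in SCS at 24 h. Their sum was 31829 to 51283 normalised counts in HOPE and 60381 to 79138 in SCS, and TCF21, PI16 and MFAP5, 3 of the 7 tested, were lower in HOPE (-1.08, -1.55 and -0.81, adjusted p = 0.0319, 0.0432 and 0.0429), where 109 of all 14141 genes were called lower. Endothelial markers summed to 16003 to 24883 in HOPE and 19252 to 48665 in SCS. At 0 h they summed to 14589 to 45746 in HOPE and 39341 to 47559 in SCS. T and NK cell markers (5 of 5 found, none at 0) summed to 290.0 to 363 in HOPE and 704 to 1689 in SCS at 24 h, and 2 of the 5 were lower. The part of these markers in the collagen differences was not tested.

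Within a library the chains of types I and IV kept a narrow ratio, and ratios between types ranged more widely. COL1A1 ranged 3.12-fold over the 24 storage libraries and COL1A2 3.38-fold, yet the ratio of the 2 ranged only from 0.827 to 1.11, which is 1.34-fold. The ratio of COL4A1 to COL4A2 ranged 1.32-fold, from 1.24 to 1.63. The ratio of COL5A1 to COL5A2 ranged 1.65-fold, and 2.10-fold over the 7 libraries after NMP. In storage the ratio of COL6A1 to COL6A3 ranged 1.62-fold. Ratios between types were wider, 2.24-fold for COL3A1 to COL1A2 and 4.65-fold for COL3A1 to COL4A1. The lowest of the latter, 0.721, was the SCS 48 h library of pig 5, and the highest, 3.35, the HOPE 0 h library of pig 4. These are ratios of normalised counts, not of molecules.

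Among these storage pairs within a type, COL6A2 and COL6A3 were an exception, since COL6A2 did not keep to COL6A3. Their ratio ranged 2.44-fold, with 0.453 to 0.811 in the SCS libraries and 0.596 to 1.10 in the HOPE libraries. At 48 h it was 0.917, 0.952 and 0.915 in HOPE pigs 2, 4 and 6 and 0.621, 0.645 and 0.520 in SCS pigs 1, 3 and 5. At 0 h it was 0.899, 1.10 and 0.596 in the same HOPE pigs and 0.727, 0.463 and 0.628 in the SCS pigs. HOPE pigs 2 and 4 thus lay above all SCS pigs before storage, and only pig 6 did not.

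**Figure D4:**
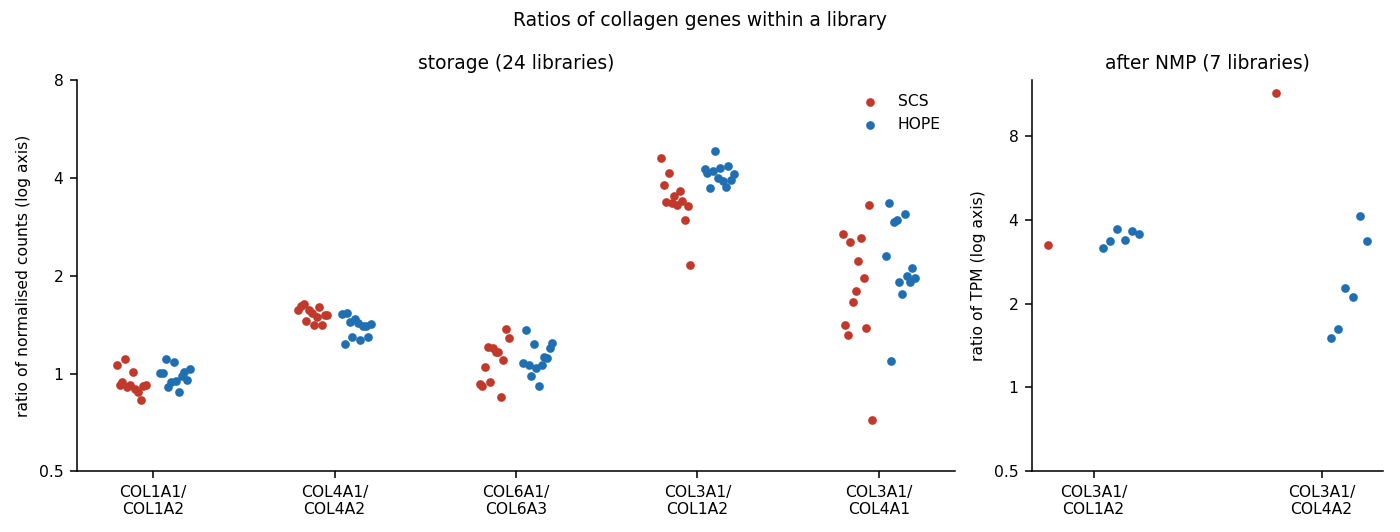
Ratios of collagen genes within each library (log axis), normalised counts during storage on the left and TPM after NMP on the right, SCS in red and HOPE in blue. The type I pair and the type IV pair stay within narrow bands of 1.34-fold and 1.32-fold, while COL3A1 to COL4A1 spreads 4.65-fold and COL3A1 to COL4A2 reaches 11.4 in the SCS library after NMP.

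The third question concerns hearts warmed after storage. After 2 h of NMP all 10 tested collagens were higher following 24 h of HOPE than following 3 h, and 0 of 10 were called (0% of the 4388 genes tested). The median difference was 0.85 against 0.22 over all genes; 9 of 10 had an unadjusted p under 0.05, as did 15.1% of all genes. For 10 of 10 both 24 h libraries lay above both 3 h libraries, which held for 39.3% of all genes.

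COL5A2 had the highest difference, with 13.2 and 10.7 TPM after 3 h and 25.5 and 31.1 TPM after 24 h (1.18 ± 0.27, adjusted p = 0.208). COL14A1 had the lowest, with 6.85 and 7.50 TPM against 11.6 and 12.7 TPM (0.69 ± 0.29, adjusted p = 0.323). COL3A1 measured 248 and 250.3 TPM after 3 h and 378 and 508 TPM after 24 h (0.81 ± 0.29), and COL1A2 78.4 and 70.4 TPM against 113 and 150.0 TPM (0.80 ± 0.30). The other classes had values of the same size, among them COL4A2 (1.09 ± 0.43), COL15A1 (0.88 ± 0.29) and COL6A3 (0.88 ± 0.29). Other matrix genes had like values, with medians of 0.71 for 5 proteoglycans and 0.85 for 8 basement membrane partners and none called.

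Endothelial markers (5 of 8 found, none at 0) summed to 101 and 169 TPM after 3 h and 225 and 253 TPM after 24 h. Fibroblast markers (4 of 8 found, ABCA8 at 0 in all 7 libraries) summed to 12.4 and 25.1 TPM after 3 h and 30.4 and 50.6 TPM after 24 h. Ventricular cardiomyocyte markers summed to 56568 and 60096 TPM after 3 h and 42866 and 56352 TPM after 24 h. Their part in the collagen difference was not tested.

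After 48 h of HOPE and NMP, 10 of 10 collagens were again above the 3 h level in their mean. The median was 0.49 against 0.02 over all genes, and 0 of 10 were called (0% of all genes). An unadjusted p under 0.05 was reached by 3 collagens and by 8.07% of all genes. In 5 of 10 the libraries did not overlap, where 19.4% of all genes did so in this direction, and 4 of the 5 were fibrillar: COL1A2, COL3A1, COL5A1, COL5A2 and COL14A1. COL3A1 was at 458 and 511 TPM (0.95 ± 0.29, adjusted p = 0.423, the highest difference) and COL15A1 at 23.4 and 15.8 TPM against 17.8 and 16.5 TPM after 3 h (0.15 ± 0.29, the lowest). Without either 3 h library the members' median was 0.83 or 0.23.

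After 48 h of HOPE, 8 of 10 collagens were below their mean after 24 h, with a median of -0.36 against -0.19 over all genes. The lowest differences were COL15A1 (-0.72 ± 0.29), COL4A2 (-0.59 ± 0.43) and COL6A3 (-0.58 ± 0.29), while COL1A2 (0.02 ± 0.30) and COL3A1 (0.14 ± 0.29, the highest) were on the other side. For 7 of 10 members both 48 h libraries lay below both 24 h libraries, against 35.2% of all genes. An unadjusted p under 0.05 was reached by 1 collagen and by 3.42% of all genes. Of the collagens 0 of 10 were called (0.0684% of all genes). All adjusted p-values were 0.996. The 3 HOPE comparisons share libraries, so they do not support each other.

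**Figure D5:**
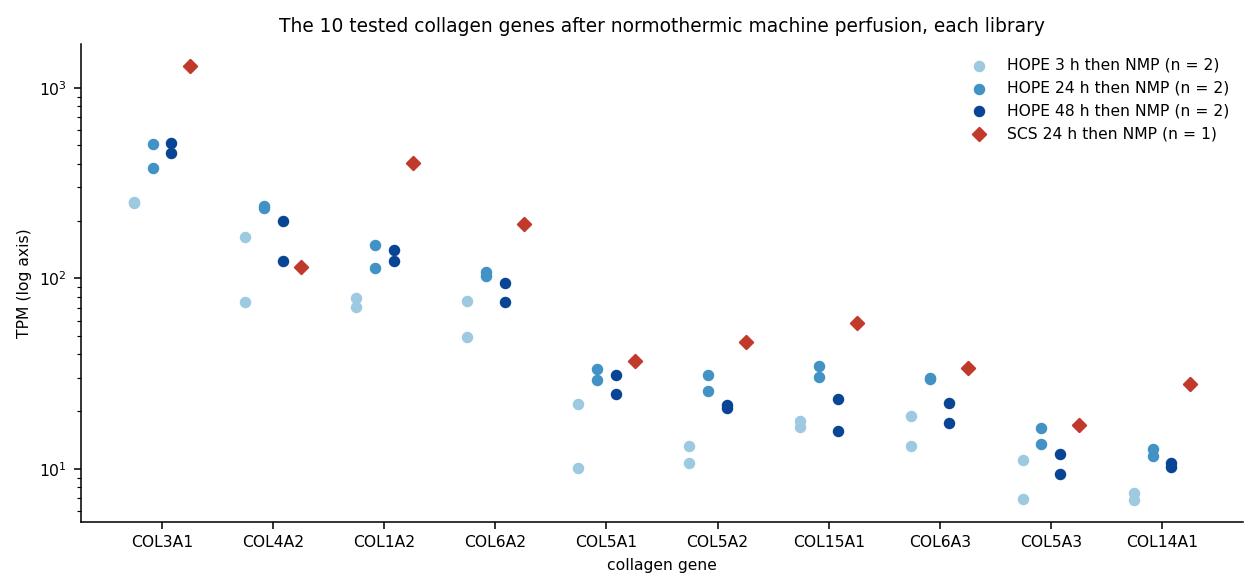
TPM (log axis) of the 10 tested collagen genes in each of the 7 libraries after NMP, HOPE in blue from 3 h (light) to 48 h (dark) and SCS 24 h as a red diamond. The SCS library is the highest for 9 of 10 genes, and for COL4A2 it lies below both HOPE 24 h libraries.

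In the SCS library after NMP collagen transcripts took a larger share of TPM than in any HOPE library. Summed collagen TPM was 2267 in it, against 672 and 518 after 3 h, 1002 and 1185 after 24 h and 1024 and 967 after 48 h of HOPE. It was above all 6 other libraries for 9 of the 10 tested collagens, which held for 8.77% of all genes. It was below all 6 for 0 of 10, which held for 66.5% of all genes. COL14A1, 1 of the 9, reached the mean of 10 TPM only with this library counted. Of the 10 collagens 3 were called higher than after 24 h of HOPE, against 2.42% of all genes called higher and 54.2% called in either direction. The median was 0.76 for the collagens and -1.12 for all genes.

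The 3 genes called were interstitial. COL1A2 measured 405 TPM against 113 and 150.0 TPM (1.63 ± 0.37, adjusted p = 0.00829). COL3A1 measured 1308 TPM against 378 and 508 TPM (1.58 ± 0.36, adjusted p = 0.0085), and COL14A1, a FACIT collagen that binds type I fibrils, 27.9 TPM against 11.6 and 12.7 TPM (1.14 ± 0.35, adjusted p = 0.0272). None of the 3 was called when HOPE 24 h replicate 1 was left out (1.43, 1.36 and 1.08, adjusted p = 0.0631, 0.0663 and 0.134), and COL14A1 was not called without replicate 2 (1.20, adjusted p = 0.109). The lone SCS library is assumed in the fit to vary like the HOPE groups. COL14A1 passed the mean of 10 TPM (12.5 TPM over all 7 libraries) only with the SCS library counted. Its call therefore rests on a filter that this same library decided.

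COL15A1 (0.82 ± 0.35, adjusted p = 0.0772), COL6A2 (0.87 ± 0.40, adjusted p = 0.0933) and COL5A2 (0.70 ± 0.33, adjusted p = 0.0983) were not called, and COL5A1, COL6A3 and COL5A3 differed by 0.23, 0.17 and 0.18. COL4A2 was the lowest and only negative member, with 114 TPM against 234 and 241 TPM (-1.05 ± 0.52, adjusted p = 0.119). The ratio of COL3A1 to COL1A2 was 3.23 in the SCS library, inside the range of 3.16 to 3.71 over all 7. The ratio of COL3A1 to COL4A2 was 11.4 against 1.51 to 4.14 in HOPE. Fibrillar genes made up 80.0% of summed collagen TPM in it and 55.5% to 73.1% in HOPE, and basement membrane genes 5.07% and 12.9% to 24.5%. These sums lack COL1A1, COL4A1 and COL18A1 and have COL6A1 at 0, so they are not shares of all collagen. In the SCS library COL4A2 alone gave 114.3 of the 115.0 TPM of the basement membrane genes.

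Among other matrix genes in the same library, where 106 of all 4388 genes were called higher and 2272 lower, few list genes were called. Of 5 tested proteoglycans, 1 was higher, DCN, decorin (1.13 ± 0.38, adjusted p = 0.0348), and all 5 were positive. Of 8 basement membrane partners, 2 were lower, nidogen NID2 (-2.20 ± 0.54, adjusted p = 0.0117) and laminin LAMB2 (-1.36 ± 0.42, adjusted p = 0.0269), a smaller share than among all genes. Among 3 tested receptors the integrin chain ITGB1 was lower (-1.92 ± 0.43, adjusted p = 0.00798), and none of 7 folding, 2 processing or 4 breakdown genes was called.

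All 6 ventricular cardiomyocyte markers were lower in that library, with a median of -4.27, and all 4 tested endothelial markers as well, where 2272 of all 4388 genes were called lower. The endothelial markers had sums of 72.9 TPM against 225 and 253 TPM. Fibroblast markers summed to 42.3 TPM against 30.4 and 50.6 TPM, activated fibroblast markers to 43.3 TPM against 24.8 and 35.3 TPM. Pericyte and smooth muscle markers summed to 490 TPM against 341 and 384 TPM. T and NK cell markers summed to 56.0 TPM against 11.3 and 21.2 TPM, and macrophage markers to 171 TPM against 81.1 and 159 TPM. For these lists and the activated fibroblast list the SCS library lay above all 6 others. TPM values share 1 total, so a lower share of some genes goes with a higher share of others. With quantile normalisation, which sets the median of all genes to 0.03, the collagen median was 1.90 and 9 of 10 were called higher, while COL4A2 was at 0.01. The share of all genes called higher with that normalisation is not given here. The part of cell make-up and of the storage method in these values cannot be told apart with 1 SCS library.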

How the data were processed

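The deposited arm 1 table holds normalized counts, a signal that the authors made, per the values, by dividing gene counts by 1 factor per library; in all 24 columns 100% of values were whole multiples of 1 step (tolerance 1e-06). The deposited arm 2 values were read as TPM, per the values, since each column has the same total. In the submitters' processing notes, HISAT2 2.2.1, featureCounts 2.0.6, STAR 2.5.2b, DESeq2 and Subread 1.5.2 are named, with build Sscrofa11.1; which arm each served is not said. In arm 2, 11 columns could not be tied to a sample and were left out.

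Genes with a mean of at least 10 (14141 in arm 1, 4388 in arm 2) were fitted per arm over all its libraries with limma 3.58.1 (trend) in R 4.3.3 on log2(value + 1), which understates changes of low genes. The design had assumed normalized counts in both arms; its settings were kept for TPM. Alternatives were other pseudocounts, filters and scalings, edgeR 4.0.16 and DESeq2 1.42.0 on the recovered reads, and leaving libraries out. The fit was tested on simulated data.

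The same pig gave 4 biopsies, and deviations from group means correlated in all 18 SCS pairs (r 0.232 to 0.72) and all 18 HOPE pairs (0.399 to 0.73), so a second fit took the pig as a replicate block (random term, correlation 0.44, between storage groups).

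Members, lists and rules were chosen with earlier results of these data known. Named were collagens called in any comparison, the major cardiac chains, and the highest and lowest member of each comparison; other genes only where called. COL16A1, COL4A5, COL6A6, COL12A1 and COL27A1 were also named after their values were seen.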

Additional observations from a re-analysis of the deposited data

How the results depend on the processing

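The count of collagens called stayed within 1.5 times of the count given above in 361 alternative results of arm 1 and 49 of arm 2. It moved further in 9 and 3. In arm 1 the main count was 0 in all 13 comparisons, so the count in each of those 361 results was also 0. In HOPE against SCS at 24 h it was 0 in the main comparison, 1 with DESeq2, 0 to 2 when 1 pig or library was left out in turn, and, with the replicate block, 1 without the SCS 48 h library of pig 1 and 2 without pig 1. At 48 h it was 19 with scaling to library totals, 0 to 1 when 1 pig was left out, and 2 with the replicate block without pig 1. At 48 h of SCS it was 4 with scaling to library totals, where COL15A1, COL5A3, COL23A1 and COL28A1 were lower but the median of all genes was -0.99. In arm 2, SCS against HOPE 24 h, it was 9 of 10 with quantile normalisation, 6 with only the groups compared and 0 to 3 when 1 library was left out, and COL4A2 turned from -1.05 to 0.0054 with quantile normalisation. The replicate block there, which uses numbers that the labels do not tie to animals, gave 4 of 10, with COL4A2 lower (-1.34, adjusted p = 0.0381); it changed no other collagen call in either arm. The fits that combine the block with leaving out 1 pig or library, or that leave out 1 arm 1 library, were added after seeing the data. With 3 pigs a group the SE of a storage difference ran from 0.21 (COL5A3) to 0.92 (COL11A1) on the log2 scale, which limits what could be called. Why the counts move with these alternatives was not tested. For the other scalings, DESeq2 and the fits on fewer samples, the share of all genes called is not given here. Their counts of collagens therefore have no background beside them.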
